A study of Mus musculus with 6 samples.

Results

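The genes of miR-183, miR-96 and miR-182 form a cluster of 3 microRNA hairpins on mouse chromosome 6, all on the minus strand. The cluster was followed in small-RNA libraries of an epicardial cell line from the mouse, grown in culture. Epicardial cells cover the surface of the heart. The KO cells carried a lentivirus with a guide RNA for CRISPR/Cas9 knockout of Hdac3, a histone deacetylase of repressor complexes (3 libraries). The EV control cells carried an empty-vector lentivirus (3 libraries), so all 6 libraries come from transduced cells. Whether each library is a separate culture, whether the KO cells are a clone or a pool, and whether the empty vector encoded Cas9 is not stated in the labels. The members were all rows of the deposited count table named for miR-183, miR-96 or miR-182 with a 5p or 3p arm, which gave 6 of 1028 mature microRNAs. The arms were chosen by name, but the cluster itself was selected on the KO and EV read counts of its arms in these same libraries. The differences between KO and EV are therefore given as a description of these libraries, with fold changes and errors but without p-values, and nothing is supported with them.

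In vertebrates the cluster is known for its high expression in sensory cells, such as hair cells of the inner ear, photoreceptors and sensory neurons. Its 3 hairpins are processed from a common primary transcript by Drosha and then Dicer, and each can yield a mature microRNA from its 5p and its 3p side. Bases 2 to 8 of a mature microRNA, the seed, pair with target messenger RNAs. In mice and humans, changes in the seed of miR-96 cause progressive hearing loss. miR-182 is known to repress Foxo1 and Foxo3, transcription factors of cell survival and metabolism. Outside sensory organs the cluster is also found in many cultured and tumour cells.

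The mature sequences are given first because the 5p arms are near relatives whose seeds differ by 1 or 2 bases. They are RefSeq's (GRCm38.p6), 5′ to 3′, with the seed in capitals.
miR-183-5p: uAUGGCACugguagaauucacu
miR-96-5p: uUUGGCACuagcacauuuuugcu
miR-182-5p: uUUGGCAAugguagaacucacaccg
miR-183-3p: gUGAAUUAccgaagggccauaa
miR-96-3p: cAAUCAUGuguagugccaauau
miR-182-3p: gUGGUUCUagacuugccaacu

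Positions are counted from 1 at the 5′ end, without gaps. Within the seed, miR-96-5p differs from miR-182-5p by C8A and from miR-183-5p by U2A. miR-182-5p differs from miR-183-5p by U2A and A8C in the seed. Over the whole length miR-182-5p and miR-183-5p are the closest pair, with 18 of 22 positions identical. miR-96-5p shares 12 of 23 positions with miR-182-5p and 13 of 22 with miR-183-5p, and its likeness to both lies mostly at the 5′ end. No pair of 5p arms had more than 8 identical bases in a row at the same positions. Of all 1028 names 849 matched a RefSeq mature sequence, and among these 0 others had the seed of a cluster arm.

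The hairpins show where each arm sits. The mature arms are in capitals, the 5p arm first.
Mir183: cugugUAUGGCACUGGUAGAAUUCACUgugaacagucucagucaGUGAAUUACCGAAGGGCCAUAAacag
Mir96: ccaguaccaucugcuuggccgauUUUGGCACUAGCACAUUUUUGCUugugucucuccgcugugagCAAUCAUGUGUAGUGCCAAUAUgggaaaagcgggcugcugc
Mir182: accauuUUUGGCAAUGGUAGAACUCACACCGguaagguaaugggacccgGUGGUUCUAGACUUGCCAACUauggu

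In GRCm38 the cluster spans 3820 bp at chr6:30165918-30169737. Mir183 (chr6:30169668-30169737) comes first in the direction of transcription, and Mir96 (chr6:30169446-30169551) follows after a gap of 116 bp. Mir182 (chr6:30165918-30165992) lies a further 3453 bp downstream. No other gene of the GENCODE M21 annotation overlaps the span, so the hairpins are intergenic in it. Rncr4, a long noncoding RNA gene of the opposite strand, starts 3155 bp away on the Mir183 side. The protein-coding neighbours are Nrf1 on the Mir182 side and Ube2h beyond Rncr4.

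The libraries held 11824881 to 13412774 counts, and 1 read was worth 0.0637 to 0.0892 CPM. CPM are counts per 1000000 of a library's size, which is its total over the microRNAs tested times a TMM factor. This factor corrects for library composition and was 1.23 for EV 1 and 0.919 to 1.04 for the other 5 libraries. Messenger RNAs, among them Hdac3 and the defining markers of epicardial cells, are not measured in these libraries, so neither the knockout nor the cell type was checked. miR-21a-5p was the most abundant microRNA, at 719012 ± 39561 CPM in KO and 643738 ± 124883 CPM in EV (SD, n = 3 each). Between the counts of 2 EV libraries chi-square was 200445 for EV 1 with EV 3 and 82588 for EV 1 with EV 2. It was 44341 for EV 2 with EV 3, so EV 1 was the farthest from its group by this measure. In KO chi-square was 34163 for KO 1 with KO 2 and 30633 for KO 2 with KO 3. It was 9174 for KO 1 with KO 3, so KO 2 was the farthest there. In the level of miR-451a, EV 3 and KO 2 stood apart from the other libraries. This red blood cell microRNA had 62.7 CPM in KO 2 and 54.7 CPM in EV 3, against 0.243 to 2.45 CPM in the other 4. Another of its list, miR-486a-5p, had 15.1 CPM in KO 2 and 13.3 CPM in EV 3, against 5.68 to 9.25 CPM in the other 4. The third, miR-144-3p, did not go with them, with 1 count in EV 2 and 0 in the other 5 libraries. The summed level of the 3 red blood cell microRNAs in the table was 5.92 to 77.8 CPM in KO and 8.73 to 68.0 CPM in EV, that of 4 white blood cell microRNAs at most 0.558 CPM in KO and 1.55 CPM in EV, and that of 2 endothelial ones 34.7 to 35.4 CPM in KO and 36.6 to 42.1 CPM in EV. The presence of such cells and their part in the results below were not tested, and results are also given without EV 3 and KO 2.

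The cluster was well expressed in these cells, and nearly all of its counts came from the 5p arms. All 6 arms passed the filter on low counts. miR-182-5p ranked 19 by mean CPM among the 460 microRNAs tested, miR-183-5p 32 and miR-96-5p 99. The 3p arms ranked much lower, with miR-182-3p at 308, miR-183-3p at 362 and miR-96-3p at 449. In every library the order of levels was miR-182-5p, miR-183-5p, miR-96-5p, miR-182-3p, miR-183-3p and miR-96-3p. The ranges of neighbours in this order, over all 6 libraries, did not overlap. The arms differ in length only between 21 and 25 bases, but adaptor ligation favours some sequences over others, so an order of counts need not be the order of molecules in the cell. The order did not follow the position in the cluster, since Mir96, in the middle, had the lowest counts and Mir182, the last, the highest.

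**Figure D1:**
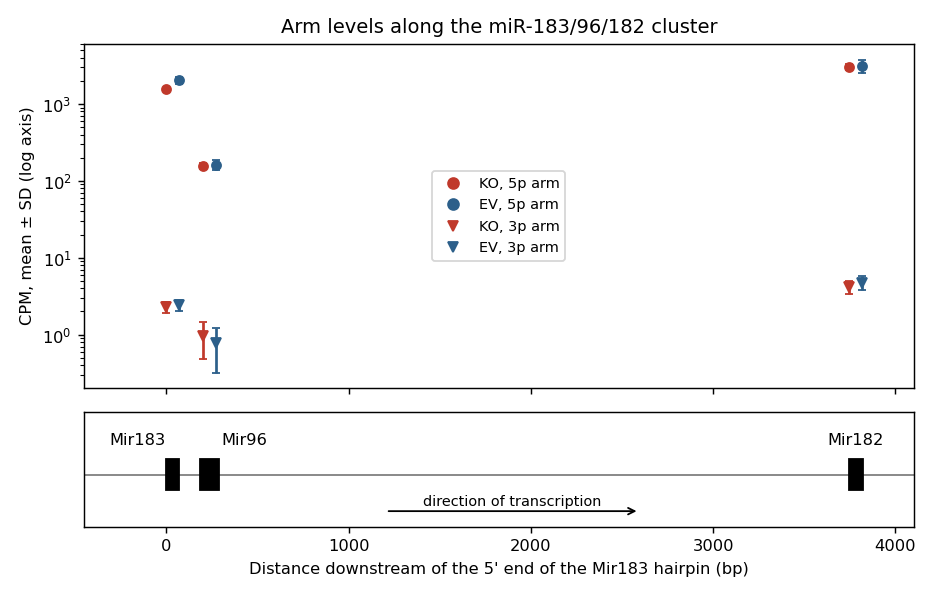
Mean level of each arm in CPM (log axis, ± SD, n = 3 libraries a group) above the position of its hairpin, in bp downstream of the 5′ end of Mir183, with KO in red and EV in blue and the symbols of a hairpin set apart sideways for legibility. The 5p arms of Mir183, Mir96 and Mir182 lie far above their 3p arms, and Mir182, the farthest downstream, has the highest level.

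miR-183-5p, the 5p product of the first hairpin, was lower in KO in every library. It had 19000, 20170 and 18820 counts in KO 1, KO 2 and KO 3, and 29083, 24742 and 24974 counts in EV 1, EV 2 and EV 3. In CPM these were 1541, 1609 and 1541 in KO and 1853, 2020 and 2229 in EV. The groups did not overlap, and the KO libraries lay within a narrow band while EV 3 was the highest. The mean was 1564 ± 39.2 CPM in KO and 2034 ± 188 CPM in EV (SD, n = 3 each), which is 23.1% lower in KO. edgeR gave a log2 change of -0.38 (SE 0.08), and -0.32 (SE 0.11) without EV 3 and KO 2. Without KO 1, KO 2 or KO 3 alone it was -0.37, -0.40 and -0.37. The 3p arm of the same hairpin, miR-183-3p, had only 24 to 36 counts a library. It had 2.68, 2.07 and 2.05 CPM in KO 1, KO 2 and KO 3 and 2.29, 2.86 and 2.14 CPM in EV 1, EV 2 and EV 3, so the groups overlapped. Its log2 change was -0.10 (SE 0.22), between -0.24 without KO 1 and -0.0032 without EV 2, an error too wide to tell the change of the 5p arm from no change.

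miR-96-5p, the arm whose seed changes cause hearing loss, did not separate the groups. It had 162, 139 and 170 CPM in KO 1, KO 2 and KO 3, and 137, 164 and 185 CPM in EV 1, EV 2 and EV 3. EV held both the lowest and the highest library. The mean was 157 ± 16.1 CPM in KO and 162 ± 24.1 CPM in EV (SD, n = 3 each). edgeR gave it a log2 change of -0.05 (SE 0.12). The sign depended on the libraries, with 0.056 without EV 3, 0.037 without KO 2 and 0.14 without both. miR-96-3p was near the limit of these libraries, with 18, 12 and 6 counts in KO 1, KO 2 and KO 3 and 4, 12 and 12 counts in EV 1, EV 2 and EV 3. Its log2 change of 0.40 (SE 0.60) was -0.074 without EV 1 and -0.020 without KO 1.

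miR-182-5p, the most abundant arm, also overlapped between the groups. It had 2989, 2744 and 3319 CPM in KO 1, KO 2 and KO 3, and 2745, 2836 and 3873 CPM in EV 1, EV 2 and EV 3. EV 3 stood above all others, and EV 1 and KO 2 were the lowest and almost equal. The mean was 3018 ± 289 CPM in KO and 3151 ± 627 CPM in EV (SD, n = 3 each). The log2 change was -0.06 (SE 0.13), and 0.11 without EV 3, 0.0064 without KO 2 and 0.18 (SE 0.11) without both. miR-182-3p had 41 to 65 counts a library and 4.95, 4.07 and 3.36 CPM in KO 1, KO 2 and KO 3, against 3.63, 5.31 and 5.35 CPM in EV 1, EV 2 and EV 3. These overlapped, with a log2 change of -0.20 (SE 0.21), between -0.37 without EV 1 and -0.070 without KO 3.

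**Figure D2:**
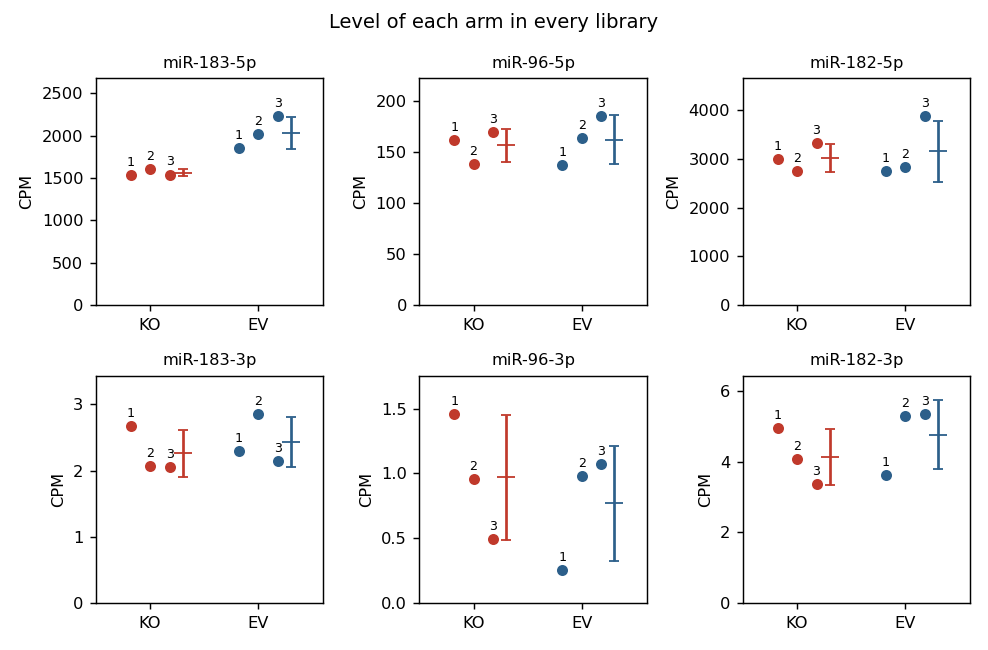
Level of each arm in CPM in the 3 KO libraries (red, left) and the 3 EV libraries (blue, right), numbered by replicate, with the mean ± SD beside them and every axis starting at 0. Only for miR-183-5p do all KO libraries (1541 to 1609 CPM) lie below all EV libraries (1853 to 2229 CPM).

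Relative to miR-183-5p, miR-96-5p counts were higher in every KO library than in any EV library. A ratio of 2 counts within a library does not depend on the scaling. There were 10.5, 8.62 and 11.0 miR-96-5p counts per 100 miR-183-5p counts in KO 1, KO 2 and KO 3, and 7.40, 8.13 and 8.31 in EV 1, EV 2 and EV 3. The means were 10.05 ± 1.26 in KO and 7.95 ± 0.482 in EV (SD, n = 3 each). KO 2 was the closest to EV, and the separation hangs on 8.62 in KO 2 against 8.31 in EV 3. These rest on 1739 and 2076 miR-96-5p counts, and their counting error was not estimated. Among single microRNAs, 29.1% of all tested had groups that did not overlap. The ratio also contains miR-183-5p, itself lower in KO, so it is not a separate result. The counts of miR-182-5p per miR-183-5p were 1.94, 1.71 and 2.15 in KO 1, KO 2 and KO 3, and 1.48, 1.40 and 1.74 in EV 1, EV 2 and EV 3. These overlapped through KO 2 and EV 3 alone, with means of 1.93 ± 0.224 in KO and 1.54 ± 0.175 in EV (SD, n = 3 each). Without EV 3 and KO 2 the means were 2.05 in KO and 1.44 in EV. The ratio of miR-182-5p to miR-96-5p was nearly equal in the groups, at 19.3 ± 0.714 in KO and 19.4 ± 1.90 in EV (SD, n = 3 each).

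**Figure D3:**
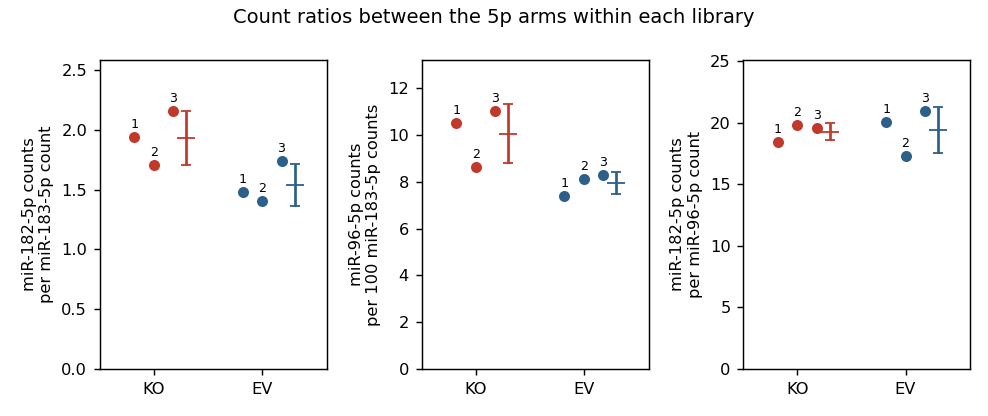
Ratios of read counts between the 5p arms within each KO library (red, left) and each EV library (blue, right), numbered by replicate, with the mean ± SD and axes starting at 0. miR-96-5p per 100 miR-183-5p is higher in every KO library (8.62 to 11.0) than in any EV library (7.40 to 8.31), while miR-182-5p per miR-96-5p overlaps.

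The make-up of the cluster followed these ratios. miR-182-5p gave 63.5% ± 2.46 of the cluster's counts in KO and 58.6% ± 2.63 in EV (SD, n = 3 each). miR-183-5p gave 33.0% ± 2.59 in KO and 38.2% ± 2.49 in EV, and miR-96-5p 3.30% ± 0.191 in KO and 3.03% ± 0.202 in EV (SD, n = 3 each). All 3 shares overlapped between the groups. The total of the 6 arms depended on the scaling. As a share of all library counts it was 0.432% to 0.476% in KO and 0.521% to 0.581% in EV, without overlap. In TMM-scaled CPM it was 4499 to 5036 in KO and 4741 to 6295 in EV, which overlapped.

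The 3p arms gave under 1% of the counts of their hairpins. The 3p arm gave 0.145% ± 0.0247 of the miR-183 counts in KO and 0.120% ± 0.0228 in EV, and 0.138% ± 0.0332 of the miR-182 counts in KO and 0.152% ± 0.0300 in EV (SD, n = 3 each). For miR-96 the share was larger than for the other hairpins in every library and rested on few reads, at 0.622% ± 0.307 in KO and 0.451% ± 0.230 in EV (SD, n = 3 each). The highest miR-96 library, KO 1, had 18 of 2016 counts on the 3p arm, a share of 0.893% (exact 95% interval 0.530% to 1.41%). The lowest, EV 1, had 4 of 2157, a share of 0.185% (exact 95% interval 0.0505% to 0.474%). The intervals cover counting error only, since PCR copies were counted as reads. No hairpin had a 3p share that separated KO from EV.

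Called means an adjusted p under 0.05 by edgeR over all microRNAs tested. With all 6 libraries, 1 of the 6 arms, miR-183-5p, was called. In that fit 7.61% of the 460 microRNAs tested were called and 2.61% were called lower in KO. Without KO 1, KO 2 or KO 3, 0 arms were called. Those fits called 16 of 479, 15 of 475 and 19 of 477 microRNAs tested, in that order. Over all 6 libraries, the KO values lay below all EV values for 1 of 6 arms and for 13.9% of the 460 microRNAs. Groups that did not overlap in either direction were found for 29.1% of them. The log2 change was below 0 for 5 of the 6 arms, with a median of -0.08, and for 238 of all 460, with a median of -0.01. Nothing is read from these counts, since the cluster was chosen with this comparison known. The authors' deposited table of 78 microRNAs lists 1 arm, miR-183-5p, with a log2 change of -0.39 and mean normalized counts of 19504 in KO and 25677 in EV.

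**Figure D4:**
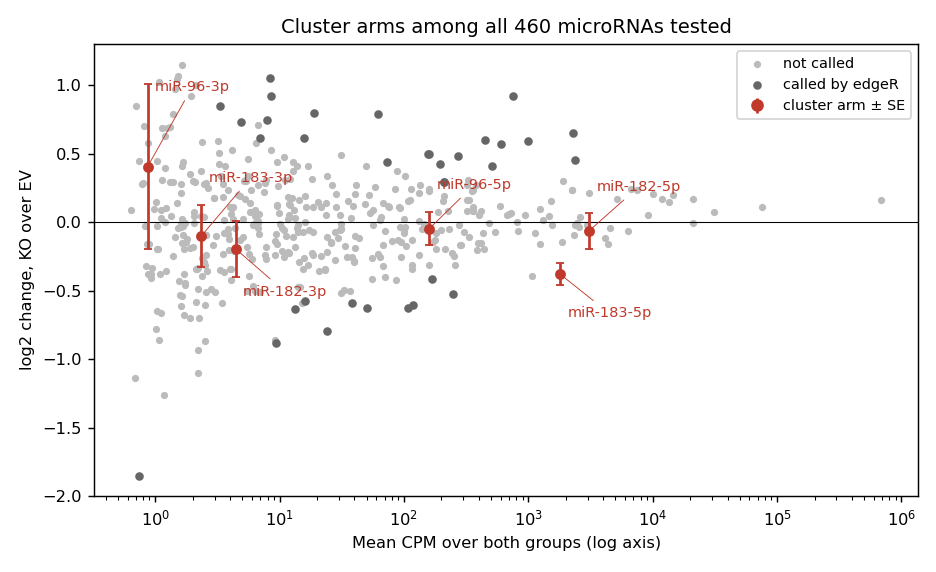
log2 change of KO over EV against mean CPM (log axis) for all 460 microRNAs tested, with the 6 arms of the cluster in red (bars are ± SE) and called microRNAs in dark grey. miR-183-5p lies at -0.38 with a short error bar, and the bars of the other 5 arms reach 0.

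Scaling moved all arms together. With library size alone, the median log2 change of all microRNAs was -0.16, a shift of -0.15 from the TMM fit. miR-183-5p then stood at -0.52 (SE 0.10), which is -0.36 relative to that median. miR-182-5p stood at -0.20 (SE 0.11) and miR-96-5p at -0.19 (SE 0.11), which are -0.04 and -0.03 relative to the median. Over all 16 other ways of fitting, the log2 change of miR-183-5p lay between -0.52 and -0.31.

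**Figure D5:**
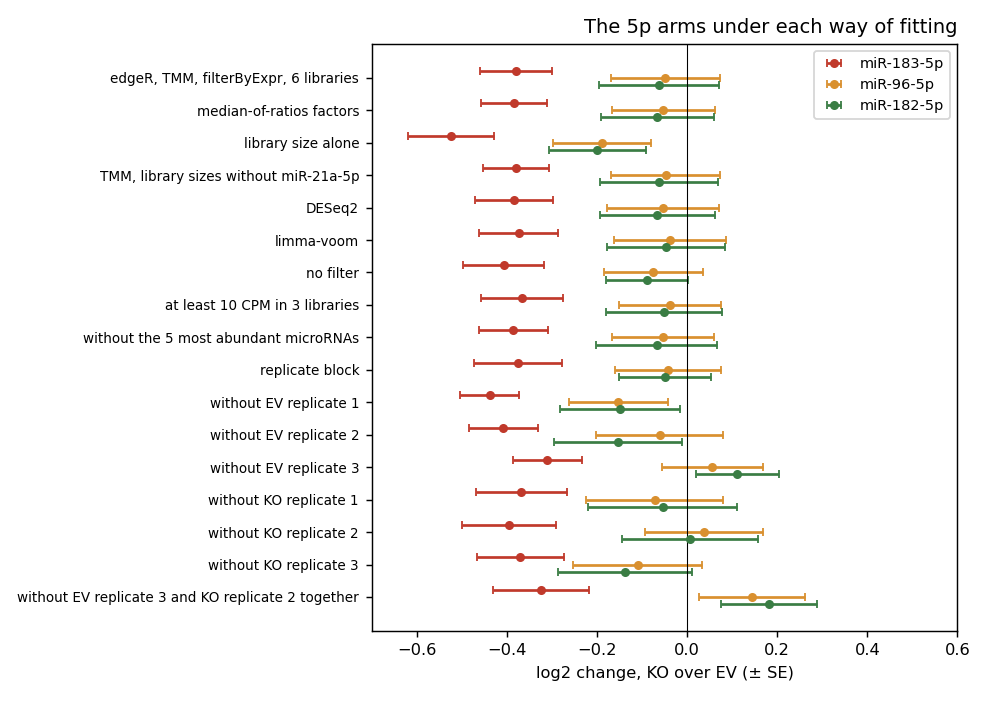
log2 change of KO over EV (± SE) of miR-183-5p, miR-96-5p and miR-182-5p under the fit with TMM factors and all 6 libraries (top) and 16 other ways of fitting. miR-183-5p lies between -0.52 and -0.31, while miR-96-5p and miR-182-5p move to the right of 0 without EV 3, without KO 2 and without both.

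Across the 6 libraries miR-182-5p and miR-96-5p moved together, and miR-183-5p followed them less closely. On log2 CPM, Pearson's r of miR-182-5p with miR-96-5p was 0.87 (Spearman's rho 0.89, n = 6), and 0.96 without EV 1 and KO 2, the 2 libraries farthest from the median of miR-96-5p. That value keeps EV 3, the highest library of both arms. For miR-183-5p with miR-182-5p r was 0.40 (rho 0.14, n = 6), and -0.66 without EV 2 and EV 3, the farthest from the median of miR-183-5p. The -0.66 keeps EV 1 as the only EV library, so the difference of miR-183-5p between the groups enters it. Since 0.96 and -0.66 leave out different libraries, they cannot be set against each other. Correlations without EV 3 and KO 2 were not computed. Points of this kind share the library and its scaling factor, and no test was made. Among 246 other microRNAs with a mean of at least 10 CPM, the pattern most like that of miR-182-5p was that of miR-361-3p, with r of 0.98 (rho 0.77, n = 6). It had 145 ± 12.8 CPM in KO and 148 ± 33.5 CPM in EV (SD, n = 3 each), and like miR-182-5p it was highest in EV 3. The next were miR-425-5p, miR-30e-5p, miR-140-5p and miR-20a-5p, with r of 0.95, 0.94, 0.93 and 0.92. Of these 5 names 2 were also among the first 5 by rank correlation, and 2 with library size alone, so the order of likeness is loose.

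Most other microRNAs listed for sensory and nerve tissue were scarce in these cells. Of 11 neural and retinal microRNAs, 5 passed the filter. edgeR called 0 of these 5 in either direction, against 7.61% of all 460 microRNAs tested, a share from which 0 of 5 cannot be told apart. DESeq2 (0) and limma-voom (0) gave the same count on the same libraries. Before adjustment 0 of the 5 had an edgeR p under 0.05, against 106 of all 460. The median log2 change was -0.05 against -0.01 for all. miR-7a-5p, a microRNA of neuroendocrine cells, was the most abundant, at 2101 ± 309 CPM in KO and 1703 ± 502 CPM in EV (SD, n = 3 each). Its log2 change was 0.30 (SE 0.19), and it was the 1 member called without the filter, without EV 3, and without EV 3 and KO 2. miR-9-5p, a neural microRNA, was highest in KO 2 and EV 3. In KO 1, KO 2 and KO 3 it had 19.1, 57.1 and 15.2 CPM. In EV 1, EV 2 and EV 3 it had 11.3, 32.6 and 51.4 CPM. miR-128-3p, another member that passed the filter, was not scarce, at 96.9 ± 9.79 CPM in KO and 102 ± 6.54 CPM in EV (SD, n = 3 each). The photoreceptor and neuron microRNA miR-124-3p had at most 0.718 CPM in KO and 0.714 CPM in EV. miR-204-5p, abundant in the retinal pigment epithelium, had at most 0.399 CPM in KO and 0.446 CPM in EV. miR-124-3p and miR-204-5p lay far below each of the cluster's 5p arms in every library, whereas miR-7a-5p lay far above miR-96-5p in each.

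Of the 10 epithelial microRNAs in the table, 5 passed the filter. All 5 had log2 changes below 0, as had 238 of all 460, and 2 were called lower in KO (edgeR), as were 2.61% of all. The median was -0.70 against -0.01 for all, and the same 2 were called in each of the 16 other ways of fitting. miR-200b-3p, which restrains Zeb1 and Zeb2, fell to 17.7 ± 0.898 CPM in KO, against 30.7 ± 2.25 CPM in EV (SD, n = 3 each). miR-200a-3p, from the same cluster, fell to 6.53 ± 0.323 CPM in KO, against 12.0 ± 1.50 CPM in EV (SD, n = 3 each). The summed level of the list was 27.0 to 30.7 CPM in KO and 45.0 to 54.0 CPM in EV, far below the summed level of the 6 cluster arms in every library. The other 3, miR-429-3p, miR-200c-3p and miR-200a-5p, were not called. Their log2 changes were -0.67 (SE 0.27), -0.33 (SE 0.39) and -0.70 (SE 0.26). Before adjustment 4 of the 5 had an edgeR p under 0.05, as had 106 of all 460. miR-200a-5p is the other arm of the hairpin of miR-200a-3p, and miR-200b-3p comes from the cluster of both, so the 5 are not separate members.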

How the data were processed

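Small RNAs of 3 KO and 3 EV libraries were measured. Trizol RNA was made into libraries by adaptor ligation (NEBNext) and gel size selection, per the labels' protocols, which mention no molecular identifiers. The deposited table holds the authors' whole-number read counts per mature microRNA, and TPM values that the authors made by scaling each library to 1000000, without a length term (largest deviation 3.49e-10). The authors' deposited comparison table gives mean normalized counts per group (a signal without spread), log2 fold changes, and p-values that were not used. Bowtie, DESeq 1.8.3 and mm10 are named per the submitters' processing notes. The miRBase release and the treatment of reads that match several microRNAs are not given in the sources used here.

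KO was compared with EV over the whole table with edgeR 4.0.16 (R 4.3.3): filterByExpr with a minimum count of 10 and a minimum total of 15, TMM factors, a two-sided quasi-likelihood F test, and Benjamini-Hochberg adjustment at 0.05. SE of edgeR's log2 changes were computed as the absolute log2 change divided by the square root of its F statistic. For DESeq2 and limma-voom the SE came from their own fits. The procedure was tested on simulated data. The libraries of a group differed beyond counting noise (chi-square of at least 9174 on 529 degrees of freedom), which does not show separate cultures, so calls measure the spread between these samples. Alternatives were library size alone, median-of-ratios factors, leaving out miR-21a-5p or the 5 most abundant microRNAs, DESeq2 1.42.0, limma-voom (limma 3.58.1), no filter, at least 10 CPM in 3 libraries, a replicate block, each library left out, and EV 3 and KO 2 left out together. Log2 CPM for correlations used a prior count of 2. The text names the 6 arms, the 5 microRNAs most like miR-182-5p, and for the marker lists the most abundant and called members where a result turns on them. miR-124-3p, miR-204-5p and miR-128-3p were named after their values were seen. The members and lists were chosen with earlier results of these data known. Sequences are from RefSeq and positions from GENCODE M21, both GRCm38.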

Additional observations from a re-analysis of the deposited data

How the results depend on the processing

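Of 460 microRNAs tested, edgeR called 35. The count was 5 of 460 with library size alone, 56 of 1028 without the filter, and 88 of 470 without EV 3 and KO 2 together. It was 15 to 59 when 1 library was left out, with 475 to 481 tested. The other 7 ways of fitting gave 34 to 48, among them 41 of 253 at the 10 CPM filter. The rest of these 7 had 455 to 460 tested. Since the number tested differs, the counts are not shares of the same set. The count of called arms was 1 in all settings except those without KO 1, KO 2 or KO 3, a range of 0 to 1. Leaving out 1 library moved the log2 change of miR-183-5p between -0.44 and -0.31, of miR-182-5p between -0.15 and 0.11, of miR-96-5p between -0.15 and 0.056, of miR-96-3p between -0.074 and 0.73, of miR-183-3p between -0.24 and -0.0032, and of miR-182-3p between -0.37 and -0.070. Without EV 3 and KO 2 together miR-182-5p was at 0.18 and miR-96-5p at 0.14. The cause of these moves was not tested. With a replicate block 34 microRNAs and 1 arm were called. Equal replicate numbers did not pair the libraries, with correlations of their deviations from the group means of 0.30, -0.04 and -0.22. Over all pairs of an EV and a KO library the highest was 0.43, for EV 3 with KO 2. The lowest was -0.49, for EV 1 with KO 2. The 3p arms had no value at the 10 CPM filter. With DESeq2 they had no adjusted p and were counted as not called, so in both settings only the 5p arms could be called. Depth limits the 3p arms, above all miR-96-3p with 4 to 18 counts.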
